A study of Mus musculus with 16 samples.

Results

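H3K27me3 peaks of wild type mouse ES cells that were also covered in PCGF5-deficient neural cells but not in wild type neural cells made up 1096 of the 11808 H3K27me3 peaks in the wild type ES list. They were chosen by overlap of the measured peaks themselves: a member shared at least 1 bp with a peak in PCGF5-deficient (shPCGF5) NPC and none with a peak in wild type NPC. The same rule with the NPC lists exchanged gave 883 peaks, the reverse set, while 4198 peaks were overlapped in both NPC lists and 5631 in neither. Thus 9.28% of ES peaks were members and 7.48% were in the reverse set, and because these counts restate the rule, nothing is read from them.

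The libraries came from 46C mES, a mouse ES line in which GFP reports Sox1 expression, and from in vitro differentiated neural cells (NPC) taken at day 6 of neural differentiation in suspension. The 8 histone libraries covered H3K27me3 and H2AK119ub1 in ES and NPC of wild type and of shPCGF5 genotype, which the labels also call PCGF5-depleted. According to the methods, the shPCGF5 line was grown from clonal clusters after lentiviral delivery of a hairpin against Pcgf5, so the line and the depletion cannot be told apart. 2 further libraries measured Flag-tagged PCGF5 in ES and NPC labelled wild type, from cells with a 3×Flag knock-in. With 6 inputs this gave 16 libraries, 1 per group, so no difference between genotypes could be tested over replicates. Shares are given with 95% Wilson intervals that cover counting error only.

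Polycomb repressive complexes keep developmental genes silent. PRC2 places H3K27me3, PRC1 places H2AK119ub1, and PCGF5 is one of the alternative PCGF subunits that define variant PRC1 complexes. In ES cells both marks usually lie over CpG-rich promoters of regulators of differentiation, and upon neural induction the marks are lost from neural genes and kept or gained at genes of other lineages.

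Peak lists differed in length and breadth. The wild type NPC H3K27me3 list held 11371 peaks over 9.67 Mb (median width 453 bp), and the shPCGF5 NPC list 14759 peaks over 8.18 Mb (median width 360 bp), so the list that defined members had more but narrower peaks. The H2AK119ub1 lists ran the other way, with 5754 peaks in wild type NPC and 3845 in shPCGF5 NPC. Read totals were not given, so depth is unknown. Of the defining markers of the cells, the promoters of Pou5f1 and Nanog had no peak in any list and Pax6 had peaks in all 8 histone lists. The Nes promoter had H3K27me3 peaks in the lists of shPCGF5 ES (2), wild type NPC (1) and shPCGF5 NPC (3).

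The sequences of the members fell into distinct kinds, shown here by stretches of 200 bases at peak centres (NCBIM37, the assembly called mm9, plus strand, 5′ to 3′), in lower case with each CG dinucleotide in capitals. The first set is shown because all 10 members of highest ES fold enrichment were short tandem repeats. The Ddo intron and an intergenic site whose nearest start, 457803 bp away, is that of Htr7 are shown. A site nearest to Pcdh1 that ranked between them is not. An intergenic site nearest to Ccdc113 and the promoter of B230312A22Rik had the highest ES folds among the repeats with the unit GGCAGA.
Ddo repeat, chr10:40366331-40366530: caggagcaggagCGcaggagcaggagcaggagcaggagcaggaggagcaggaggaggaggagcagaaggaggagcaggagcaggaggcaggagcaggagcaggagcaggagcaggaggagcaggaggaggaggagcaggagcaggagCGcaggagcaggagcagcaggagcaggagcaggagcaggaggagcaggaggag
Htr7 repeat, chr19:35673927-35674126: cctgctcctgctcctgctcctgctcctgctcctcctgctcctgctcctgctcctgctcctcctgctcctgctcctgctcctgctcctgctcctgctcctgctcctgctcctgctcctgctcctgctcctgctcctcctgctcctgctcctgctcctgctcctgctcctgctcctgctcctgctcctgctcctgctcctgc
Ccdc113 repeat, chr8:98041708-98041907: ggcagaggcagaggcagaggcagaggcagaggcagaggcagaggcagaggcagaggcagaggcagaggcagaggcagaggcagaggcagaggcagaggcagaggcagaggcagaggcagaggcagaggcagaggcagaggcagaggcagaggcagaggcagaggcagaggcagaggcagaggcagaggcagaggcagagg
B230312A22Rik repeat, chr4:43059274-43059473: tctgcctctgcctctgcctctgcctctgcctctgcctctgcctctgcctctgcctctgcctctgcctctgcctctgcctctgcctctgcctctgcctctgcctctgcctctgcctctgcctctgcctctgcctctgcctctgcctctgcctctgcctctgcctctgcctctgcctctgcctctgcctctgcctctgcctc
The next is the member with the highest ES fold in a long intergenic stretch of chromosome 6 between Hrh1 and Atg7.
Hrh1-Atg7 stretch, chr6:114483122-114483321: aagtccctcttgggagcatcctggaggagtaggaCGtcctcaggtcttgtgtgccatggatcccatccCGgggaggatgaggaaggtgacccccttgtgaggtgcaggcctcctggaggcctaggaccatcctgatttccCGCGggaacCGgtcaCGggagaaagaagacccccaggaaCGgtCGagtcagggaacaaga
The promoter members Lfng and Fst had the highest fold in shPCGF5 NPC among the promoter members for which 200 bases outside exons could be shown, and Epha7 and Meis2 belong to the gene lists and had no H3K27me3 peak of wild type NPC at the promoter.
Lfng, chr5:141083859-141084058: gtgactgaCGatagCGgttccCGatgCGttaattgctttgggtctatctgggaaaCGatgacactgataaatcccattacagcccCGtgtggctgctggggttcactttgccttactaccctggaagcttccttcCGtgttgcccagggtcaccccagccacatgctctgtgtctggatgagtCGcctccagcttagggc
Fst, chr13:115247403-115247602: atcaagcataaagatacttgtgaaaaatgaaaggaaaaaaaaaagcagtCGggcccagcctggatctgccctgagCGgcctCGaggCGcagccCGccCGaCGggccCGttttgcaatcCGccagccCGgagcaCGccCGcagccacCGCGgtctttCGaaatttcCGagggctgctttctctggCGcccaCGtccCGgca
Epha7, chr4:28742244-28742443: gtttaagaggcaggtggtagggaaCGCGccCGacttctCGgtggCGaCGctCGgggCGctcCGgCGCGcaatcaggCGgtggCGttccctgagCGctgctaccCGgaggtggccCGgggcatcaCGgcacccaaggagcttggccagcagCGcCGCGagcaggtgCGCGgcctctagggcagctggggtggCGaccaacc
Meis2, chr2:115888683-115888882: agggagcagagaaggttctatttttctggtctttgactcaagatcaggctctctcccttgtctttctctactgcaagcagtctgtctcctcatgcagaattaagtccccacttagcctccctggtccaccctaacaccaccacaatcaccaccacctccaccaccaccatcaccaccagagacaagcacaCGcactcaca
For contrast, the reverse promoter with the highest fold in wild type NPC is given last.
1810019J16Rik, chr4:133075049-133075248: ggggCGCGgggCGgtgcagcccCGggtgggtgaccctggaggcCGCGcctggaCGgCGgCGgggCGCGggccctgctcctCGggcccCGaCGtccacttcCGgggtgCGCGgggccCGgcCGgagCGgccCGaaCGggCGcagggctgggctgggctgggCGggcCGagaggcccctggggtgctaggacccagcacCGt
The repeat members shown held 0 to 2 CG dinucleotides in 200 bases, and the promoter members held 1 (Meis2), 8 (Lfng), 19 (Fst) and 23 (Epha7). The stretch member held 8 and the reverse promoter 26.

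Members were a mixture of 4 kinds of sequence, and each kind was divided differently between members and the reverse set. The stretch on chromosome 6 held 70 members and 0 reverse peaks. It was chosen as the 1 Mb bin with most members and bounded by its first and last member. Its excess of members, and the effect of leaving it out, thus follow in part from that choice. Short tandem repeats outside it, defined as peaks in which at least 0.6 of the bases matched the base at a fixed distance of 1 to 12 bases, gave 259 members against 14 reverse peaks (log2 ratio 4.21). Promoters, with the peak centre within 2500 bp of a protein-coding start, gave 454 members against 634 reverse peaks (log2 ratio -0.48). The peaks elsewhere gave 313 against 235 (log2 ratio 0.41). Without the stretch and the repeats, 767 members stood against 869 reverse peaks, and the log2 ratio changed from 0.31 to -0.18.

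**Figure D1:**
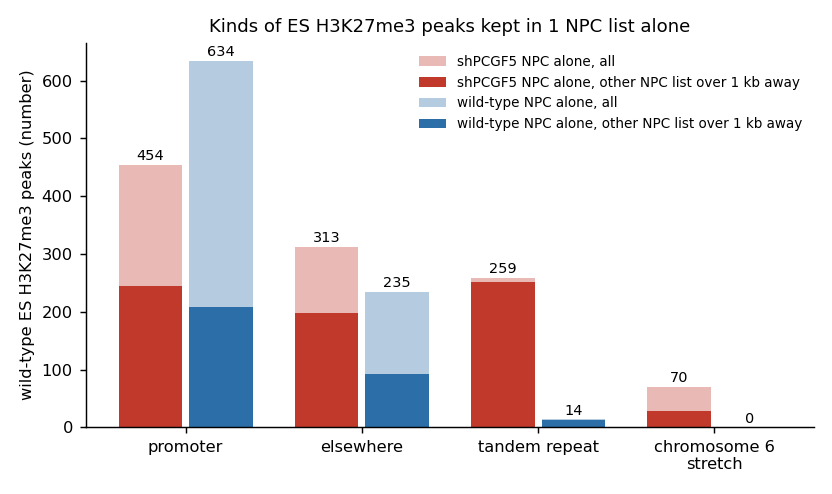
Number of wild type ES H3K27me3 peaks (vertical axis) of each kind that were members (shPCGF5 NPC alone) or reverse peaks (wild type NPC alone). Pale bars give all peaks and solid bars those over 1000 bp from any peak of the other NPC list. Promoters were fewer among members (454) than in the reverse set (634), and tandem repeats were more frequent (259 against 14). The chromosome 6 stretch (70 against 0) was chosen for its many members.

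Counting members in the stretch or in repeats where they also lay at a start, 42.9% of members were at a promoter (95% interval 39.98 to 45.83), against 44% of all ES peaks, 71.8% of reverse peaks and 65.1% of peaks overlapped in both NPC lists. Intergenic sites made up 33.1% of members, 28.0% of all ES peaks and 14.9% of reverse peaks. Tandem repeats, within and outside the stretch, made up 23.9% of members and 1.59% of reverse peaks, with 8.92% of all ES peaks. A ratio of observed to expected CpG of at least 0.6, the usual sign of a CpG island, was found in 25.2% of members, 33.1% of all ES peaks and 53.3% of reverse peaks. No CpG at all was present in 19.7% of members, 9.80% of all ES peaks, 14.2% of peaks overlapped in neither NPC list and 3.74% of reverse peaks. Members differed from the reverse set in each of these features by more than the counting intervals. These intervals treat the 70 members of the stretch as separate sites. Of peaks overlapped in neither NPC list, 24.1% were at a promoter, 36.7% were intergenic and 15.9% had a CpG ratio of at least 0.6. In these features they were farther from the reverse set than members were. In the shares of tandem repeats (12.005%) and of peaks without CpG they lay between members and the reverse set. Low shares of promoters and of CpG islands were thus not particular to members.

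Peak strength varied among the kinds as well. The median ES fold enrichment was 5.64 in repeat members, 4.30 in promoter members, 4.32 elsewhere and 3.89 in the stretch. Repeat members had a median GC skew, the excess of G over C or the reverse divided by their sum, of 0.579, and a median CpG ratio of 0. In shPCGF5 NPC, the H3K27me3 peaks over members had a median fold of 3.85 and a median width of 376 bp, and those over ES peaks overlapped in both NPC lists had 4.67 and 926 bp. The peaks that kept members in the rule were therefore lower and narrower than the peaks at sites covered in both NPC lists. This used the values that chose the members and is a description.

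The 143 kb stretch on chromosome 6 (chr6:114443035-114586345) held 138 H3K27me3 peaks of wild type ES, all intergenic. It began 9.74 kb after the end of Hrh1, a histamine receptor gene, and Atg7, a gene of autophagy, started 150.1 kb from its first base. Its ES peaks comprised 70 members, 0 reverse peaks, 45 overlapped in both NPC lists and 23 in neither. Peaks covered 33.3% of the stretch in the H3K27me3 list of wild type ES, 47.8% in shPCGF5 ES, 11.7% in wild type NPC and 35.6% in shPCGF5 NPC. Coverage was lowest in wild type NPC, in which the list held 49 peaks against 129 in shPCGF5 NPC.

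H2AK119ub1, which the rule did not use, was also lowest in wild type NPC in the stretch. The stretch was covered by 146 peaks over 34.3% of its length in wild type ES, by 123 peaks over 30.9% in shPCGF5 ES, by 12 peaks over 1.73% in wild type NPC and by 99 peaks over 18.7% in shPCGF5 NPC. No Flag-PCGF5 peak lay there in ES or NPC. Of the 70 members in the stretch, 46 (65.7%, 95% interval 54.0 to 75.8) were overlapped by H2AK119ub1 in shPCGF5 NPC and 0 in wild type NPC (upper bound 5.20%).

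The members of the stretch were not independent sites. Of its 143281 words of 31 bases, read on either strand, 93.9% occurred again within the stretch, against 1.09% and 1.65% in the flanking regions of equal length. The most frequent distances between copies of a word were 2445, 2424 and 2458 bp, so the sequence was that of a long array of units of about this size, and each of the 70 members shared a word of 31 bases with another member in the central 150 bases. A read that matches several copies cannot be placed on 1 of them by sequence alone. The share of such reads and how the authors treated them were not given in the sources used here. The number of copies in each line was not measured. The part of copy number and read placement in the difference was not tested.

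**Figure D2:**
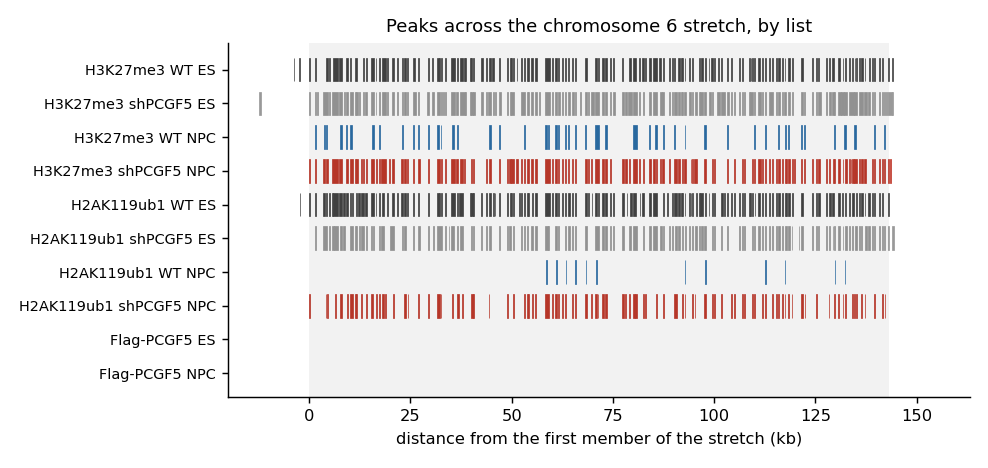
Peaks (bars) of the 10 lists along the chromosome 6 stretch, with distance from its first member on the horizontal axis (kb). Bars are dense in the 4 ES lists and in both shPCGF5 NPC lists (129 H3K27me3 and 99 H2AK119ub1 peaks), sparser for H3K27me3 in wild type NPC (49) and few for H2AK119ub1 in wild type NPC (12), and the Flag-PCGF5 lists have none.

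Short tandem repeats were the strongest members in ES. The Ddo intron carried a peak of 1308 bp with a fold of 15.5 in wild type ES, 11.2 in shPCGF5 ES and 7.03 in shPCGF5 NPC, and the closest peak of wild type NPC was 34866 bp away. The site nearest to Htr7, 457803 bp from its start, had a fold of 13.6 in wild type ES, 4.14 in shPCGF5 ES and 2.52 in shPCGF5 NPC. Both also had H2AK119ub1 in wild type ES (fold 8.78 and 7.45) and in shPCGF5 NPC (fold 2.72 and 4.60). They were the only ones with H2AK119ub1 in shPCGF5 NPC among the 10 members of highest ES fold, all of which had it in wild type ES and 0 of which had it in wild type NPC. The site nearest to Pcdh1 had an H3K27me3 fold of 15.4 in wild type ES, 3.68 in shPCGF5 ES and 4.43 in shPCGF5 NPC. The Ccdc113 site had H3K27me3 in wild type ES (10.4), shPCGF5 ES (10.2) and shPCGF5 NPC (3.50) but H2AK119ub1 in ES alone. Most repeat members lay far from H3K27me3 of wild type NPC, with a median gap of 160137 bp, and 61.0% were intergenic and 32.8% in introns.

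The repeats were then searched for 2 units, chosen after the members were seen. A run of 4 copies of GGA within 150 bases around the peak centre, on either strand, was found in 109 members (9.95%) and 11 reverse peaks (1.25%), against 2.68% of all ES peaks. A run of 2 copies of GGCAGA was found in 110 members (10.0%) and 2 reverse peaks (0.227%), against 3.64% of all ES peaks. A peak may hold both runs. Among the 259 repeat members, 98 (37.8%) held the first and 107 (41.3%) the second. The GGCAGA run was also frequent among ES peaks overlapped in neither NPC list (5.43%).

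Counted over whole lists, the GGCAGA run was found in 3.64% of H3K27me3 peaks in wild type ES and 0.211% in wild type NPC, and in 2.21% in shPCGF5 ES and 1.15% in shPCGF5 NPC. The run was picked from members, of which 110 held it, and the whole shPCGF5 NPC H3K27me3 list had 169 peaks with it. The order of the NPC H3K27me3 lists thus in part restates the rule. In the H2AK119ub1 lists it was found in 4.85% of peaks in wild type ES, 4.53% in shPCGF5 ES, 0.261% in wild type NPC and 0.936% in shPCGF5 NPC. In the Flag-PCGF5 lists it was found in 0.306% of ES and 0.108% of NPC peaks. The share of peaks centred on any tandem repeat did not follow this order in the H3K27me3 lists, being 9.45% in wild type NPC and 9.31% in shPCGF5 NPC. In the H2AK119ub1 lists it was 15.8% in wild type NPC and 21.6% in shPCGF5 NPC, with 11.8% and 21.2% in the ES lists. Members of this kind share their sequence, and the repeats were not masked here, so the part of read placement was not tested.

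Promoter members were next examined by gene. A member lay at the promoter of 425 protein-coding genes, and 175 of them had no H3K27me3 peak of wild type NPC anywhere within 2500 bp of a start. These 175 genes made up 5.88% of the 2976 genes with an ES H3K27me3 promoter peak. The reverse count was 149 genes, or 5.01%. The other 250 genes with a member had wild type NPC peaks elsewhere within 2500 bp of a start, which may be another start of the gene. Of the 470 members at a promoter, repeats included, 214 were within 1000 bp of a wild type NPC peak. With a window of 1000 bp the order was the opposite, with 150 genes against 173.

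The 13 lists of developmental and signalling genes held 436 ES-marked genes, of which 11 (2.52%) were among the 175, so list genes were rarer there than all ES-marked genes (5.88%). Of the reverse genes, 7 were list genes (1.61%, against 5.01%). The 11 are described because they belong to the lists. In the neural and homeobox lists, Sox11 (chr12:28025562-28027574), a transcription factor of differentiating neurons, had an H3K27me3 fold of 5.63 in wild type ES, 6.61 in shPCGF5 ES and 2.71 in shPCGF5 NPC, with no peak in wild type NPC. Cdh2, which encodes N-cadherin, had 4.83 in wild type ES and 4.77 in shPCGF5 NPC, with no peak in shPCGF5 ES or wild type NPC. Meis2 (chr2:115688800-115891575), a TALE homeobox factor, had 4.03 in wild type ES, 8.54 in shPCGF5 ES and 7.43 in shPCGF5 NPC, where 5 peaks touched the promoter window and had a summed width of 2322 bp. None of these promoters had an H3K27me3 peak in wild type NPC, and Meis2 was the most broadly covered of them in shPCGF5 NPC. Cdh2 was among the neural genes at which the study reported higher H3K27me3 in PCGF5-deficient NPC, a difference of level rather than of presence. Of the others, Pou3f2 and Nes did not give a member at the promoter. Their promoter peaks had a larger summed width in shPCGF5 NPC than in wild type NPC, 4413 against 1953 bp at Pou3f2 and 3131 against 1252 bp at Nes. Pou3f2 had H3K27me3 in wild type ES (4.83), shPCGF5 ES (8.15), wild type NPC (4.49) and shPCGF5 NPC (6.90), Nes had none in wild type ES, and Sox1 was not analysed here.

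Signalling genes came next. Fst (chr13:115242470-115249159) encodes follistatin, an antagonist of activin, and had 6.16 in wild type ES, 5.45 in shPCGF5 ES and 7.69 in shPCGF5 NPC, where 3 peaks covered 1368 bp. Frzb (chr2:80252127-80287782), a secreted WNT antagonist, had 6.42, 5.07 and 5.04 in these lists, and the WNT receptor gene Fzd8 had 4.30, 4.29 and 3.37. Fgf15, an FGF ligand of the neural tube, had 4.83, 5.45 and 4.12. All 4 had a peak in both ES lists and in shPCGF5 NPC. Of the guidance genes, Epha7 (chr4:28740281-28894649), an ephrin receptor, had 4.30, 4.68 and 6.04, and Efna5 (chr17:62953533-63230666), an ephrin ligand, had 6.42, 4.29 and 4.77. Epha7 was the member farthest from any H3K27me3 peak of wild type NPC, at 3013710 bp, and Efna5 was 1601120 bp from one. The potassium channel genes Kcna5 (5.63, 5.68 and 4.91) and Kcnn3 (5.02, 5.45 and 4.18) completed the group.

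**Figure D3:**
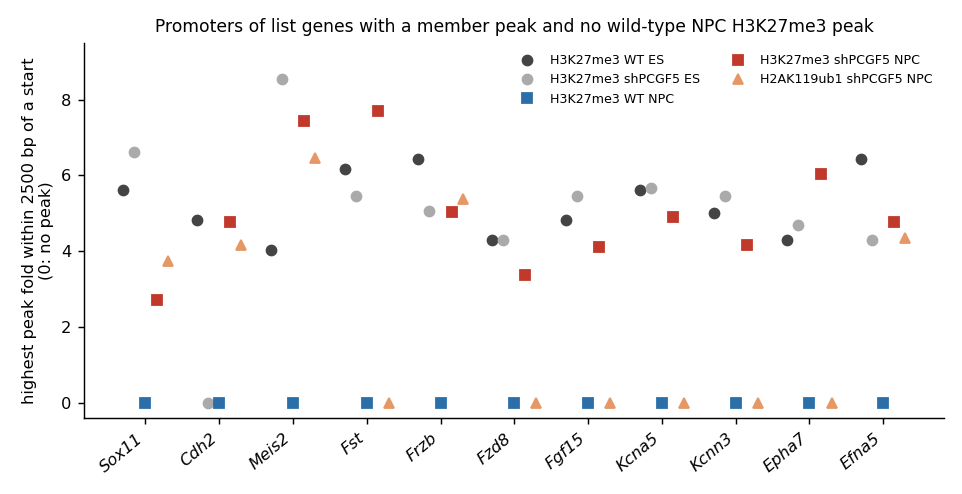
Highest peak fold enrichment (vertical axis, 0 where the list has no peak) within 2500 bp of a start site for the 11 list genes with a member and no H3K27me3 peak of wild type NPC at the promoter. Points stand for lists, 1 library each. Of the 11, 10 also had H3K27me3 in shPCGF5 ES, and 5 had H2AK119ub1 in shPCGF5 NPC.

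The lists as wholes were divided as follows, beside 14.3% of all ES-marked genes with a member at the promoter and 19.7% with a reverse peak. Of 27 ES-marked WNT genes, 8 had a member and 4 a reverse peak. Of 50 ES-marked neurotransmitter receptor genes, 2 had a member and 11 a reverse peak, and of 56 regulators of mesoderm and endoderm, 5 had a member and 12 a reverse peak. HOX genes (1 and 4 of 34), BMP and GDF genes (2 and 5 of 17), ion channels (7 and 13 of 62), axon guidance genes (6 and 8 of 38), homeobox regulators (7 and 9 of 73), FGF, hedgehog and Notch genes (5 and 7 of 27) and the list of neural transcription factors (2 and 3 of 31) had fewer genes with a member than with a reverse peak. The 2 genes with a member in the last of these were Sox11 and Cdh2, and Cdh2 is an adhesion gene, not a transcription factor. Nodal and TGF-beta genes had 2 and 2 of 12, pluripotency and germline genes 1 and 0 of 5, and Polycomb subunits 0 and 0 of 6. WNT genes and pluripotency genes were thus the lists in which members outnumbered reverse peaks, the latter by Dux alone.

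Of the 8 WNT genes, Frzb and Fzd8 lacked wild type NPC peaks at the promoter, and Wnt3, Wnt5a, Wnt5b, Wnt11, Fzd1 and Fzd9 had them. Of the 250 genes with a member and wild type NPC peaks at the promoter, the summed width of the promoter peaks was larger in shPCGF5 NPC at 171 (68.4%) and in wild type NPC at 79 (31.6%). Over all 1958 ES-marked genes with peaks in both NPC lists, it was larger in shPCGF5 NPC at 28.2%, and at 12.8% of the 436 reverse genes with shPCGF5 NPC peaks. The rule itself favours this order, so it is a description. Hes5, Lfng and Nr2f2 are examples with wider peaks in shPCGF5 NPC. At Hes5 (chr4:154335032-154336480), a Notch target that maintains neural progenitors, 1 peak of shPCGF5 NPC covered 4795 bp with a fold of 6.88, and 4 peaks of wild type NPC covered 2389 bp with a highest fold of 5.60. At Lfng (chr5:141083295-141091497), a glycosyltransferase that modifies Notch, 4 peaks of shPCGF5 NPC covered 4507 bp with a fold of 8.55, against 1 peak of 1202 bp with a fold of 6.49 in wild type NPC. Nr2f2, an orphan nuclear receptor gene, had the member with the highest shPCGF5 NPC fold, 8.75, at 95 bp from a wild type NPC peak. In either NPC list 9 peaks touched its promoter window, with a summed width of 3871 bp in wild type and 8683 bp in shPCGF5. Genes with a member and wider wild type NPC peaks included Hoxa3 (24880 bp against 15006 bp in shPCGF5 NPC), Lhx2 (14874 bp against 11701 bp), Lhx9 (10522 bp against 5583 bp), Wnt11 (6895 bp against 5306 bp) and Wnt5a (5067 bp against 3848 bp). All these promoters had H3K27me3 in both genotypes, and the direction of the difference in width varied among them.

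The distance to the nearest wild type NPC peak separated these cases. It was at most 1000 bp for 34.2% of members, of which 57.1% were at promoters, and over 100 kb for 28.3% of members, of which 49.4% were tandem repeats. The median gap was 7026.5 bp for members and 500 bp for reverse peaks. Gaps over 1000 bp were found in 65.8% of members and 35.6% of reverse peaks. Among promoters, 244 members and 209 reverse peaks were over 1000 bp from the other list, so the order at promoters was the opposite of that over all gaps.

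**Figure D4:**
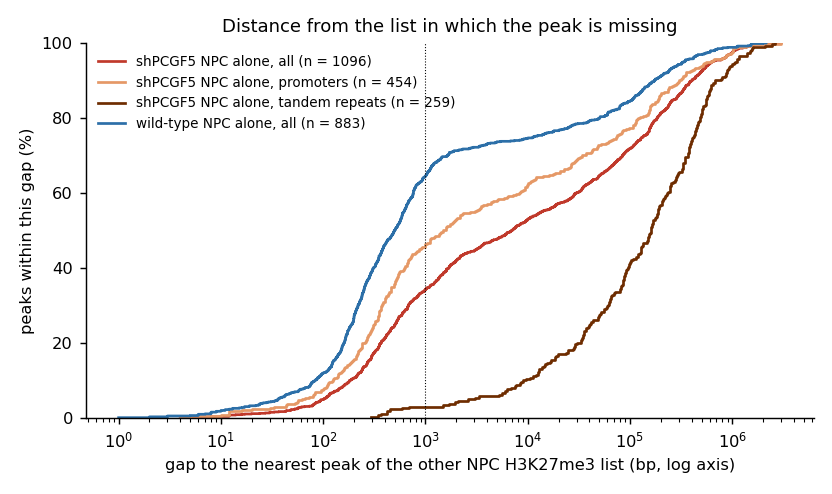
Cumulative share of members and of reverse peaks (vertical axis, %) by the gap to the nearest peak of the NPC H3K27me3 list in which the peak is missing (horizontal axis, bp, log scale). The dotted line marks 1000 bp, which 34.2% of the 1096 members and 64.4% of the 883 reverse peaks did not exceed.

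At the boundary of the rule, the members at Rab37, Klrg2, near Dio3, at Lhx2 and at Degs2 were 4, 5, 6, 8 and 10 bp from a wild type NPC peak. The ES peaks near Olfr1373, near 4933428G20Rik and at Bmp7 were left out because of 3 bp of overlap with a wild type NPC peak, and those near Ptgs1 and Gm5607 because of 4 bp. The ES folds of these members were 3.50 to 5.09 and those of the peaks left out were 3.15 to 5.63, so both sides of the boundary had similar peaks.

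H2AK119ub1 provided a readout that had no part in the choice of members. In NPC, it overlapped 26 members in wild type (2.37%, 95% interval 1.62 to 3.45) and 125 in shPCGF5 (11.4%, 9.66 to 13.4). The reverse set had the opposite order, with 7.02% (5.52 to 8.90) in wild type and 1.47% (0.862 to 2.50) in shPCGF5. Over all ES peaks the shares were 13.3% and 13%, and over peaks overlapped in both NPC lists 34.8% and 31.5%. Of the members, 116 had H2AK119ub1 in shPCGF5 NPC alone, 17 in wild type NPC alone, 9 in both and 954 in neither. Members with H2AK119ub1 in neither made up 87.0%, against 80.6% of all ES peaks and 91.7% of reverse peaks.

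The stretch supplied 46 of the 125 overlaps. Without the stretch and the repeats, the shares were 2.35% in wild type NPC and 7.56% in shPCGF5 NPC. Promoter members had 2.20% (1.20 to 4.01) and 7.05% (5.04 to 9.78), members elsewhere 2.56% and 8.31%, and repeat members 3.09% and 8.11%. The shPCGF5 share was the higher in each of the 4 kinds, although the shPCGF5 NPC list of H2AK119ub1 was the shorter of the 2. Both marks came from cultures of the same line, with 1 library per mark and 1 input library per genotype and stage. The marks are thus not independent in culture or input, and a difference between cultures and an effect of PCGF5 cannot be told apart.

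In ES the order was different. H2AK119ub1 overlapped 39.0% of members (36.1 to 41.9) in wild type and 32.1% (29.4 to 34.9) in shPCGF5, beside 27.4% and 17.7% of all ES peaks and 39.0% and 30.6% of peaks overlapped in both NPC lists. The reverse set had 13.9% in wild type and 6.34% in shPCGF5. Members were therefore more often covered by H2AK119ub1 in ES than the reverse set in both genotypes, in the stretch (94.3% and 85.7%) and in repeats (62.5% and 61.8%) above all, but also at promoters (23.6% and 15.2%, against 12.8% and 5.68% of reverse promoters). Without the stretch and the repeats, 25.9% of members (22.97 to 29.2) had H2AK119ub1 in wild type ES and 17.2% (14.70 to 20.04) in shPCGF5 ES, near the shares of all ES peaks, with 13.7% and 5.98% in the reverse set. H3K27me3 of shPCGF5 ES came from another library than the rule used. This mark overlapped 50.4% of members (47.4 to 53.3), 35.7% of reverse peaks and 35.1% of all ES peaks. Peaks overlapped in both NPC lists had 56.9%. The share was 97.1% for members in the stretch and 71.04% for repeat members. Leaving out the stretch and the repeats gave 39.1% of members (35.7 to 42.6) and 36.02% of reverse peaks (32.9 to 39.3). These intervals overlap.

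**Figure D5:**
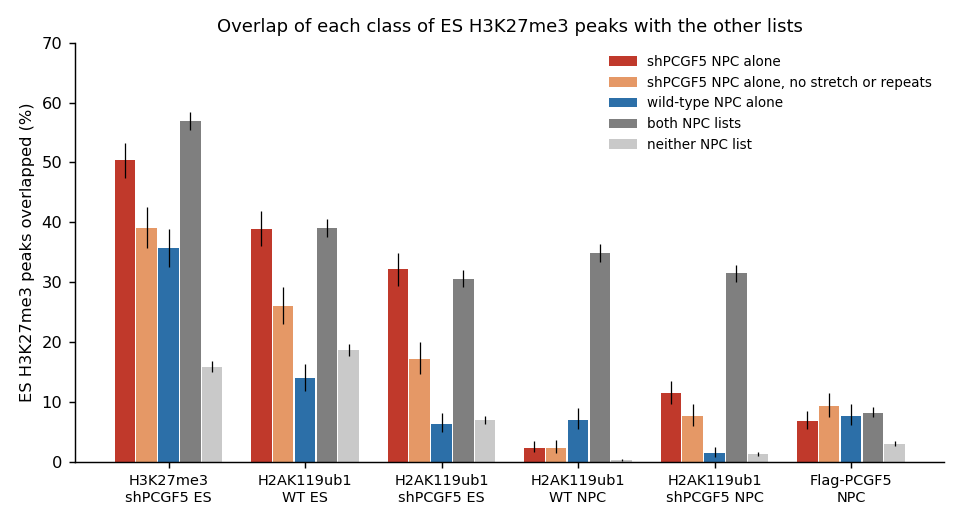
Share of ES H3K27me3 peaks of each class (vertical axis, %) overlapped by each of the lists on the horizontal axis, with 95% Wilson intervals for counting error. H2AK119ub1 of shPCGF5 NPC overlapped 11.4% of members and 1.47% of reverse peaks, and H2AK119ub1 of wild type NPC 2.37% and 7.02%.

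By gene, 18 of the 175 genes without wild type NPC H3K27me3 had H2AK119ub1 at the promoter in shPCGF5 NPC (10.3%, 6.61 to 15.7) and 3 in wild type NPC (1.71%, 0.585 to 4.92). All ES-marked genes had 25.6% and 29%. The 149 reverse genes had 3.36% in shPCGF5 NPC and 12.8% in wild type NPC. Among the 11 list genes, Sox11 (fold 3.76), Cdh2 (4.15), Meis2 (6.46), Frzb (5.38) and Efna5 (4.35) had H2AK119ub1 in shPCGF5 NPC, and 0 of 11 had it in wild type NPC (upper bound 25.9%). Sox11 and Meis2 also had it in wild type ES, with folds of 6.45 and 4.66. Cdh2, Frzb and Efna5 had no H2AK119ub1 peak in either ES list.

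Of the promoter members with H2AK119ub1 in shPCGF5 NPC and none over the peak in wild type NPC, the highest H2AK119ub1 folds were at Sobp and 9030612E09Rik (7.07), Ccdc85c (7.05), Sp8 (6.46), Egr2 (5.87), Hes3 (5.85), Mn1 (5.75), Wnt5a (5.74), Nrxn2 (5.28), Lhx2 (5.14) and Vstm2b (5.14). Sp8 patterns the forebrain, Egr2 the hindbrain, and Lhx2 is a LIM homeobox factor of the eye and cortex. At Sp8, Egr2, Hes3, Mn1, Wnt5a, Nrxn2 and Lhx2 wild type NPC had H2AK119ub1 elsewhere at the same promoter, with highest folds of 6.93, 5.02, 9.43, 4.17, 5.13, 3.68 and 9.22. Sobp, 9030612E09Rik, Ccdc85c and Vstm2b had no H2AK119ub1 promoter peak in wild type NPC.

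Flag-PCGF5 of NPC overlapped 6.75% of members, against 7.70% of reverse peaks, 8.22% of peaks overlapped in both NPC lists and 5.56% of all ES peaks. In ES it overlapped 0.182% of members and 0.356% of all ES peaks, from a list of 653 peaks. Promoter members had 12.3% in NPC (9.62 to 15.7), against 8.83% of reverse promoters (6.86 to 11.3), and repeat members 1.16% and the stretch 0%. Without the stretch and the repeats the order of the sets was the opposite, with 9.26% of members (7.404 to 11.52) and 7.83% of reverse peaks (6.22 to 9.80), and these intervals overlap. The highest folds over promoter members were at Slit2, a guidance ligand (3.81), Lrrc4b, a synaptic adhesion gene (3.43), and Fbln7 (3.29). By gene, 34 of the 175 genes (19.4%) and 33 of the 149 reverse genes (22.1%) had a Flag-PCGF5 promoter peak in NPC, beside 21% of all ES-marked genes. The intervals of both sets (14.2 to 25.9 and 16.2 to 29.5) included the share of the ES-marked genes.

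Several genes carried more than 1 member. Celsr2, Lmx1b, Lrrc4b, Pcdha11, Prickle1 and Ptprn2 had 6 each at the promoter or in the body, and Dux, Mn1 and Tnf had 5. Lmx1b and Ptprn2 had 0 at the promoter, and Ptprn2 was also among the 149 reverse genes. By 1 Mb bin, members, reverse peaks, peaks overlapped in both NPC lists and peaks in neither numbered 6, 2, 24 and 12 around Lmx1b. In the same order they were 17, 3, 23 and 7 around Pcdha11. Around Celsr2 they were 10, 1, 2 and 3, around Lrrc4b 7, 0, 6 and 6, and around Prickle1 6, 0, 1 and 4. Neighbouring members share a domain and are not separate events. At Mn1, a transcriptional coregulator, 3 H3K27me3 peaks of wild type ES touched the promoter window and had a summed width of 2606 bp. The summed width was 800 bp for 3 peaks of shPCGF5 ES and 3905 bp for 3 of shPCGF5 NPC, and wild type NPC had none. H2AK119ub1 at Mn1 was present in both NPC lists, over 1770 bp in wild type and 1425 bp in shPCGF5. Celsr2, a cadherin of planar polarity, had 1 H3K27me3 peak of 288 bp in wild type NPC and 9 over 5452 bp in shPCGF5 NPC. Dux lies in a cluster of near-identical copies, so its 5 members are uncertain in position. The clustered protocadherins and the Tnf and Lta region also held several members.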

How the data were processed

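Deposited peak lists of 10 ChIP-seq libraries were used, and the 6 inputs and the signal tracks were not analysed here. The submitters' processing notes name Bowtie2, MACS2 (version 2.1.0) and bedtools. According to the methods, the authors trimmed reads, aligned them to mm9, removed duplicates and called peaks with MACS2. A separate peak list was available for each of the 10 libraries. Histone chromatin was digested with micrococcal nuclease, Flag chromatin was crosslinked with EGS and formaldehyde and sonicated, and the Drosophila spike-in does not enter the peak lists. The authors' caller gave each deposited peak a score, its fold over background, and p and q as −log10 values, and none of these is comparable between libraries. The length of a list depends on depth and background, and read totals were not used here. The methods name default MACS2 settings for the histone marks. Of the wild type ES H3K27me3 peaks, 8.81% had a q-value over 0.05, against 0% in both NPC H3K27me3 lists. With only peaks of q 0.05 or less, 1026 members stood against 810 reverse peaks.

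Python 3.11.15 (numpy 2.4.6, pandas 2.3.3, scipy 1.17.1, matplotlib 3.10.9) was used on NCBIM37 with the GENCODE M1 annotation (22232 protein-coding genes), and the overlap code was checked on simulated intervals. Peaks were shared at 1 bp or more of overlap. Kinds were assigned in the order stretch, tandem repeat, promoter, elsewhere. The stretch ran from the first to the last member of the 1 Mb bin with most members. Members, gene lists (691 genes in 13 lists, 684 annotated) and named genes were chosen with earlier results of these data known. Named were the members with the highest folds, widths and gaps, the highest H2AK119ub1 or Flag-PCGF5 folds at promoters, list genes, genes with most members, reverse peaks of highest fold and peaks at the boundary of the rule, from which those shown were taken. Mn1, Celsr2 and Pou3f2 values, the kinds, the comparison of widths, the repeat units and the word search were chosen after values were seen. No test of conditions was possible with 1 library per group.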

Additional observations from a re-analysis of the deposited data

Results flagged for a closer look

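The difference in H2AK119ub1 overlap between genotypes had opposite signs in ES and NPC for the members as a whole and for each of the 4 kinds, although for repeat members the ES difference rested on 160 against 162 of 259 peaks. It is given as shPCGF5 minus wild type in percentage points, with 1 library per group, and the difference between stages was not tested. Over all members it was -6.84 in ES (from 39.0% to 32.1%) and 9.03 in NPC (from 2.37% to 11.4%), a change of 15.9 points. Over all ES peaks it was -9.76 and -0.279, a change of 9.48 points. In the chromosome 6 stretch it was -8.57 in ES and 65.7 in NPC, a change of 74.3 points. For promoter members it was -8.37 and 4.85, a change of 13.2 points, for members elsewhere -9.27 and 5.75, a change of 15.0 points, and for repeat members -0.772 and 5.02, a change of 5.79 points. In the reverse set the difference was negative at both stages (-7.59 in ES and -5.55 in NPC), as it was for peaks overlapped in both NPC lists (-8.46 and -3.38). For ES peaks overlapped in neither NPC list it was -11.6 in ES and 1.05 in NPC, a change of 12.7 points, near that of promoter members. The ES difference was thus negative in every class of peaks from the wild type ES list. Members were chosen for an H3K27me3 peak in shPCGF5 NPC and none in wild type NPC, in cultures of the same lines. The rule may therefore favour the sign in NPC. The part of list length, which fell from 8672 to 7170 peaks in ES and from 5754 to 3845 in NPC between wild type and shPCGF5, was not tested, except that limiting both NPC lists to 3845 peaks gave 1.55% in wild type and 11.4% in shPCGF5.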

How the results depend on the processing

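No paired analysis was possible because each group had 1 library. The log2 ratio of members to reverse peaks, 0.31, changed sign under 7 of 13 alternatives. It was -0.18 when at least 50% of the ES peak had to be covered, -0.48 with both NPC lists at 11371 top-scoring peaks, -0.47 with the ES list limited as well, -1.11 with a fold of 4 or more, and, in alternatives added after seeing the data, -0.0593 without tandem repeats, -0.18 without stretch and repeats and -0.43 for promoters alone. It was 1.29 with peaks within 1000 bp counted as shared, 0.58 with such peaks merged first, 0.52 from the shPCGF5 ES list and 0.0856 for the higher-scoring 50% of each list. Members numbered 642 for the higher-scoring 50%, 554 at a fold of 4 or more and 470 at promoters, and reverse peaks 468 with sharing within 1000 bp and 501 when merged.

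H2AK119ub1 in shPCGF5 NPC overlapped 22.4% of members within 1000 bp, 6.66% for the higher-scoring 50% of the list, 7.70% without the stretch and 7.56% without stretch and repeats. In wild type NPC the share was 7.57% within 1000 bp, 1.09% for the higher-scoring 50% and 1.55% at equal list lengths. The shPCGF5 share was thus higher under each of these settings. The promoter share was 24.6% with a window of 1000 bp, 35.5% for members with no wild type NPC H3K27me3 within 1000 bp and 59.2% without stretch and repeats. Of 82 recomputed values, 39 stayed within their limits, 36 moved and 7 changed sign. Unknown depth and peaks called separately in each library limit all counts, and a missing peak is not a measured absence of the mark.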

Other observations

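Other genes among the 175 without a wild type NPC H3K27me3 peak at the promoter are given here by their values. They were chosen after the values were seen, and no share of such genes was counted. Zeb2, a zinc finger factor of neural and neural crest development, had an H3K27me3 fold of 5.36 in wild type ES (1 peak), 5.84 in shPCGF5 ES (5 peaks) and 7.69 in shPCGF5 NPC, where 6 peaks covered 3376 bp, with H2AK119ub1 at a fold of 4.31 in shPCGF5 NPC and none in wild type NPC. Fzd3, a receptor of planar polarity and axon growth, had 4.03, 5.07 and 4.46 in the same lists, with 4 peaks over 2051 bp and H2AK119ub1 at 5.82 in shPCGF5 NPC. Prom1, which encodes the progenitor surface protein CD133, had 4.83, 4.29 and 3.98, and the adhesion gene Nrcam had 4.30, 5.84 and 4.99. Gli1, a target and effector of hedgehog signalling, had 4.03, 5.84 and 3.73. Lin28b, an RNA-binding regulator of let-7, had 5.09 in wild type ES, no peak in shPCGF5 ES and 5.04 in shPCGF5 NPC.

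Of the 149 reverse genes, 8 are given in the same way, chosen after their values were seen and with no count of such genes among the others. Cldn7, a tight junction claudin, had an H3K27me3 fold of 4.35 in wild type ES and 9.57 in wild type NPC over 3955 bp, with no peak in shPCGF5 ES or shPCGF5 NPC. Epcam, an epithelial adhesion molecule, had 2.79 and 6.01 in the same lists, and also no peak in shPCGF5 ES or NPC. Esrp1, an epithelial splicing regulator, had 5.36 in wild type ES, 6.22 in shPCGF5 ES and 5.87 over 4718 bp in wild type NPC, and Cdh3, which encodes P-cadherin, had 4.03, 5.07 and 5.28 over 3788 bp. Neither had a peak in shPCGF5 NPC, and St14 (4.44) and Krt7 (2.93) had H3K27me3 in wild type NPC alone of the 2 NPC lists. Cldn7 and Esrp1 also had H2AK119ub1 in wild type NPC, with folds of 4.17 and 5.10, and none in shPCGF5 NPC. Bcl11a and Elavl3 stood in the same set, with 6.67 over 4008 bp and 6.80 over 2951 bp in wild type NPC. Cell types in the 2 NPC cultures were not measured in these lists.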
